A study of Bos taurus with 3 samples.

Results

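The angiopoietin-like genes encode secreted glycoproteins with a coiled-coil part near the amino end and, in most members, a fibrinogen-like domain at the carboxyl end. They resemble the angiopoietins, which are ligands of the endothelial receptor TIE2, but do not bind that receptor. ANGPTL4 is best known as an inhibitor of lipoprotein lipase, the enzyme that frees fatty acids from circulating triglyceride for uptake by tissues such as fat, muscle and the lactating mammary gland. ANGPTL2 acts on blood vessels and on inflammatory and connective tissue cells, with integrin α5β1 as one receptor, and ANGPTL1 (angioarrestin) restrains the sprouting of vessels.

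The gene tables of the mammary libraries held 3 genes of this family, ANGPTL1 (NM_001075426.1), ANGPTL2 (NM_001109814.1) and ANGPTL4 (NM_001046043.2), among 9154 genes in all. They were found by the symbol in the authors' description of each gene. ANGPTL5, ANGPTL6, ANGPTL7 and ANGPTL8 were listed in none of the libraries. The 3 genes were chosen on their measured ratios in the same libraries that are described here, so their own levels and ratios are given without a test.

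The libraries came from mammary biopsies of 18 Holstein cows of the second parity, 6 different cows at each of 3 time points relative to parturition. These were −35 d, when the gland was dry, −7 d, in stage I of lactogenesis with cell proliferation and pre-colostrum, and +3 d, in stage II with colostrum. Tissue from the 6 cows was combined ahead of the RNA isolation and gave, for each time point, 1 library of digital gene expression (DGE) tags, so there are no replicates and the spread among cows is not part of any value. A tag is a CATG site with the 17 bases that follow it, and the level of a gene is given as TPM, its tags over all clean tags of the library in parts per 1000000, a scale without any correction for length. Intervals are 95% intervals that cover counting error only, and not all of that, since PCR copies of 1 molecule give several tags. In whole tissue, fewer cells of a type and less RNA per cell cannot be told apart.

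The libraries held 5593237 to 5914422 clean tags, of which 2314092 to 3097468 fell on 8359 to 8662 listed genes, and 3 tags corresponded to 0.507 to 0.536 TPM. A further difference among them was the share of 5 milk protein genes (CSN1S1, CSN2, CSN3, CSN1S2 and PAEP), which rose from 0.348% of clean tags at −35 d to 4.13% at −7 d and then to 22.6% at +3 d. The median log2 ratio of the 5902 genes that averaged 5 TPM or more was −0.16 in stage I (−7 d over −35 d), −0.34 in stage II (+3 d over −7 d) and −0.52 at +3 d over −35 d. Scaling by edgeR's TMM method raised every log2 ratio by 0.19, 0.31 and 0.50 in the same order. Genes that are not among the 3 were compared by the Audic-Claverie exact test of the study's methods with Benjamini-Hochberg adjustment over all genes. A gene was called where its FDR did not exceed 0.001 and its log2 ratio reached 1 in either direction. This test compares libraries, not conditions.

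ANGPTL1, ANGPTL2 and ANGPTL4 were each lowest a week before calving and higher in both the dry gland and early lactation. Which of these other libraries was the higher turned with the scaling, as the ratios between them show. ANGPTL2 had the highest level of the 3 genes in every library, with 169 tags or 28.57 TPM at −35 d (interval 24.4 to 33.2), 58 tags or 10.37 TPM at −7 d (7.87 to 13.4) and 138 tags or 23.61 TPM at +3 d (19.8 to 27.9). ANGPTL1 had 142 tags or 24.01 TPM at −35 d (20.2 to 28.3), 41 tags or 7.33 TPM at −7 d (5.26 to 9.94) and 110 tags or 18.82 TPM at +3 d (15.5 to 22.7). ANGPTL4 had 95 tags or 16.06 TPM at −35 d (13.0 to 19.6), 28 tags or 5.01 TPM at −7 d (3.33 to 7.24) and 84 tags or 14.37 TPM at +3 d (11.5 to 17.8). For each gene, the −7 d interval lay below the intervals of both other libraries, which overlapped each other.

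**Figure D1:**
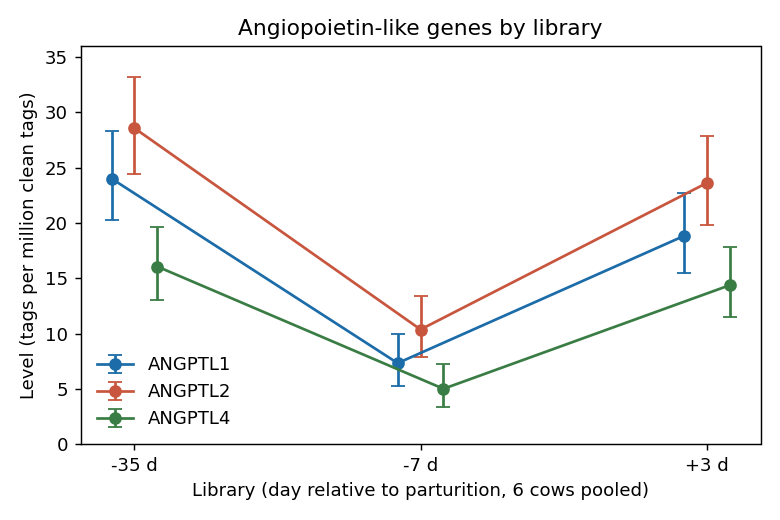
Levels of ANGPTL1, ANGPTL2 and ANGPTL4 in TPM (tags per 1000000 clean tags, vertical axis from 0) in the 3 libraries (horizontal axis); bars are 95% Poisson intervals of the tag counts, and points are shifted sideways for legibility. Each gene drops to between 5.01 and 10.37 TPM at −7 d, below its intervals at −35 d and +3 d.

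In stage I, the level of ANGPTL1 was 3.28-fold lower at −7 d than at −35 d (interval 2.30 to 4.76), that of ANGPTL4 3.21-fold lower (2.09 to 5.08) and that of ANGPTL2 2.76-fold lower (2.03 to 3.78). In log2 terms these ratios were −1.71, −1.68 and −1.46. Among the same 5902 genes, 1.39%, 1.49% and 2.66% had a lower ratio than ANGPTL1, ANGPTL4 and ANGPTL2, respectively. All 3 genes met the calling thresholds as lower, by which they were chosen, whereas 6.45% of all tested genes were called lower in stage I and 2.62% higher. After TMM scaling the log2 ratios were −1.52 for ANGPTL1, −1.49 for ANGPTL4 and −1.27 for ANGPTL2.

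In stage II, the order of the ratios was different. ANGPTL4 was 2.87-fold higher at +3 d than at −7 d (interval 1.85 to 4.57), ANGPTL1 2.57-fold higher (1.78 to 3.77) and ANGPTL2 2.28-fold higher (1.66 to 3.15). The log2 ratios were 1.52, 1.36 and 1.19, and 98.2%, 97.6% and 96.6% of these genes had a lower ratio. The intervals of the 3 genes overlapped in both stages, so no order among their changes stands out from counting error. All 3 met the thresholds as higher, again the values they were chosen by, against 3.12% of all tested genes called higher in stage II and 10.4% called lower. Both stages use the same −7 d library, so the drop and the rise are not separate observations of that time point.

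Between the dry gland and early lactation, the 3 genes stood near each other. The log2 ratio at +3 d over −35 d was −0.35 for ANGPTL1 (interval −0.72 to 0.02), −0.28 for ANGPTL2 (−0.61 to 0.06) and −0.16 for ANGPTL4 (−0.60 to 0.28). The signs turned with the scaling: after TMM they were 0.15, 0.22 and 0.34. Summed over the 3 genes, the level was 68.6 TPM at −35 d, 22.7 TPM at −7 d and 56.8 TPM at +3 d. On the scale of clean tags, the log2 ratio of the sum at +3 d over −35 d was −0.27 (interval −0.49 to −0.06). TMM scaling raises this ratio by 0.50, which turns its sign too.

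The makeup of the summed tags moved little while the sum itself changed. ANGPTL2 held 41.6% of the tags of the 3 genes at −35 d (95% Wilson interval 36.9% to 46.5%), 45.7% at −7 d (37.3% to 54.3%) and 41.6% at +3 d (36.4% to 46.9%). ANGPTL1 held 35.0%, 32.3% and 33.1% in the same order, and ANGPTL4 held 23.4%, 22.0% and 25.3%. All intervals of a gene's share overlapped among the libraries. Near-level shares follow in part from the choice of 3 genes that each fell and rose past the same thresholds. Within a library, ANGPTL2 had 1.19 to 1.41 times the tags of ANGPTL1, and the interval of that ratio included 1 in each library. ANGPTL1 had 1.49 times the tags of ANGPTL4 at −35 d (1.14 to 1.96), 1.46 times at −7 d (0.884 to 2.46) and 1.31 times at +3 d (0.977 to 1.76), so this step was larger than counting error only in the dry gland. A tag is counted per transcript at its own CATG site, and such sites can differ in recovery between genes, so these orders describe tags and not molecules.

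All 3 genes were of middle abundance. At −35 d, 64.1% of the listed genes had fewer tags than ANGPTL1, 68.6% fewer than ANGPTL2 and 53.9% fewer than ANGPTL4. At −7 d the shares were 37.2%, 44.6% and 30.6%, and at +3 d they were 64.7%, 70.8% and 57.6%. By rank within the library, a measure that no scaling alters, the 3 genes at +3 d stood at or slightly above their place at −35 d.

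The genome annotation places ANGPTL1 and ANGPTL2 alike and ANGPTL4 otherwise. In the ARS-UCD2.0 annotation, used here only for the order of genes, ANGPTL1 lies inside RALGPS2 and ANGPTL2 inside the related gene RALGPS1, both exchange factors for Ral GTPases. Neither host gene was listed in any library. ANGPTL4 lies between KANK3 and RAB11B. KANK3 had 15.56 TPM at −35 d, 18.42 TPM at −7 d and 47.38 TPM at +3 d, and was called higher in stage II with a log2 ratio of 1.36 but not in stage I with 0.24. RAB11B, a GTPase of recycling endosomes, had 173.14, 116.03 and 100.24 TPM and was called in neither stage. The flanking genes thus did not show the dip of ANGPTL4 at −7 d to a called extent.

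Beyond the family, 8 further lists of related genes were followed, with 50 listed accessions in all besides the 3 genes. In stage I, 9 of these were called lower and 2 higher, where 6.45% of all tested genes were called lower and 2.62% higher. In stage II, 3 were called lower and 10 higher, where the shares over all tested genes were 10.4% and 3.12%. In early lactation against the dry gland, 4 were called higher and 5 lower, where 2.33% of all tested genes were called higher and 16.3% lower. Over the 46 that averaged 1 TPM or more (0.5 tags added to every count), the median log2 ratio was −0.62 in stage I, 0.43 in stage II and 0.08 at +3 d over −35 d, against −0.19, −0.31 and −0.53 over all 7570 such genes. After TMM scaling, 3 were called higher and 7 lower in stage I, 14 higher and 1 lower in stage II, and 13 higher and 1 lower between −35 d and +3 d.

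None of the 5 true angiopoietins and their receptors was called in either stage, except that ANGPT1 was called higher in stage I after TMM scaling. ANGPT1, the activating ligand of TIE2, had 7.44 TPM at −35 d, 14.12 TPM at −7 d and 11.12 TPM at +3 d, so its highest level fell in the library where the angiopoietin-like genes were lowest. Its log2 ratio in stage I was 0.92 (interval 0.38 to 1.49), and 1.11 after TMM scaling. ANGPT2, the context-dependent antagonist, had 3.21, 5.01 and 8.04 TPM, with a log2 ratio of 1.32 at +3 d over −35 d that missed the FDR threshold and passed it after TMM scaling, with 1.82. ANGPT4 was scarce, with 13, 4 and 15 tags. The receptors TEK (TIE2), with 26.04, 16.98 and 25.83 TPM, and TIE1, with 14.54, 10.01 and 15.57 TPM, had their lowest values at −7 d too, but their stage I log2 ratios of −0.62 and −0.54 were under the threshold of 1.

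Among other proteins with a fibrinogen-like domain, MFAP4, TNXB and FCN2 had larger ratios in both stages than the 3 genes, and the other listed ones did not. Of 13 symbols, 8 accessions were listed, with 4 called lower in stage I, and 5 higher and 1 lower in stage II. Over all tested genes, 6.45% were called lower in stage I, and 3.12% higher and 10.4% lower in stage II. MFAP4, a microfibril-associated protein of elastic fibres, had 207 tags or 35.00 TPM at −35 d, 25 tags or 4.47 TPM at −7 d and 237 tags or 40.54 TPM at +3 d. TNXB (tenascin X), a matrix protein that binds collagen fibrils, had 18.43, 3.04 and 19.16 TPM. The accession named FCN2 in the file, and FCN1 in ARS-UCD2.0, encodes a ficolin of innate immunity and had 6.42, 1.25 and 11.63 TPM, with only 7 tags at −7 d. These 3 genes were 7.83-fold, 6.06-fold and 5.13-fold lower in stage I and 9.07-fold, 6.30-fold and 9.29-fold higher in stage II, and all 6 of these differences were called. In stage I, the log2 intervals of TNXB (−3.43 to −1.86) and FCN2 (−3.77 to −1.18) overlapped those of ANGPTL1, ANGPTL2 and ANGPTL4. In stage II, both overlapped that of ANGPTL4.

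The remaining fibrinogen-like genes differed from one another. TNC (tenascin C) had 8.96, 3.75 and 9.58 TPM and was called higher in stage II only, with a log2 ratio of 1.35. FGL2, a protein of macrophages and T cells with prothrombinase activity, had 26.38, 14.30 and 30.79 TPM and was also called only in stage II, with 1.11. FGL1, better known from the liver, fell at every step, from 116.66 TPM at −35 d to 53.99 TPM at −7 d and 25.66 TPM at +3 d, with log2 ratios of −1.11 and −1.07. Both FGL1 calls were lost after TMM scaling, with −0.92 and −0.77. The fibrinogen chain gene FGG had 17, 9 and 16 tags and FGB was listed only at −35 d, with 2 tags, and neither was called.

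**Figure D2:**
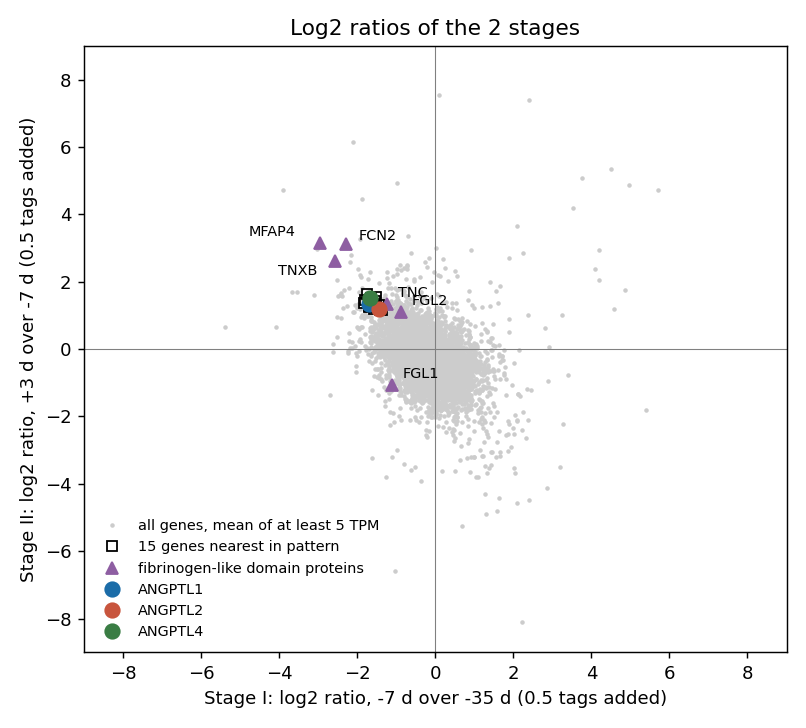
Log2 ratio in stage I (horizontal axis) against stage II (vertical axis), with 0.5 tags added to each count, for the 5902 genes averaging 5 TPM or more (grey), the 15 genes nearest in pattern to the 3 genes (squares), 6 proteins with a fibrinogen-like domain (triangles) and ANGPTL1, ANGPTL2 and ANGPTL4 (circles). The 3 circles lie together at upper left, TNC and FGL2 lie near them, MFAP4, TNXB and FCN2 lie farther out, and FGL1 is below 0 on both axes; the axes share the −7 d library, so its counting error moves a point along the falling diagonal.

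Receptors that angiopoietin-like proteins are known to use were covered in part, with 4 of 10 symbols listed. ITGB5, a partner of integrin αV, had 95.36 TPM at −35 d, 41.48 TPM at −7 d and 83.14 TPM at +3 d and was called lower in stage I, with a log2 ratio of −1.20, and higher in stage II, with 1.0. ITGB1, the β1 chain shared by many integrins, had 39.23, 14.66 and 15.91 TPM and was called lower in stage I, with −1.42, but had a log2 ratio of only 0.12 in stage II. ITGA5, the α5 chain, had 24.52, 22.35 and 35.07 TPM and was called in neither stage. ITGAV had 21, 8 and 14 tags and was not called. Of the proteases that cut angiopoietin-like proteins, 2 of 7 symbols were listed. FURIN had 7.44, 3.40 and 4.28 TPM, and BMP1 (a tolloid protease) had 9.98, 15.55 and 27.54 TPM and was called only between −35 d and +3 d, with a log2 ratio of 1.47, and after TMM scaling also in stage II, with 1.13.

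LPL, which encodes the lipase that ANGPTL4 inhibits, did not share the dip. It had 208 tags or 35.17 TPM at −35 d, 214 tags or 38.26 TPM at −7 d and 1007 tags or 172.26 TPM at +3 d. The log2 ratio was 0.12 in stage I (interval −0.16 to 0.40) and 2.17 in stage II (1.96 to 2.39), a 4.50-fold rise that was called with an adjusted p of 5.11e-114 in the Audic-Claverie exact test. Counted within each library, there were 2.19 LPL tags for each ANGPTL4 tag at −35 d (interval 1.71 to 2.82), 7.64 at −7 d (5.14 to 11.8) and 12 at +3 d (9.59 to 15.2). The intervals at −7 d and +3 d overlapped. The ratio of LPL to ANGPTL4 tags does not depend on the scaling. LPL was near level from −35 d to −7 d, so the first step of the ratio restates the drop of ANGPTL4 by which that gene was chosen. The second step also holds the stage II rise of ANGPTL4, another value it was chosen by.

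The rest of the lipase and lipid uptake genes moved in several ways. CD36, a fatty acid translocase that takes up what lipoprotein lipase frees, had 156.90 TPM at −35 d, 77.24 TPM at −7 d and 272.33 TPM at +3 d. It was called lower in stage I with a log2 ratio of −1.02, a call lost after TMM scaling at −0.83, and higher in stage II with 1.82. VLDLR had only 12, 5 and 2 tags. LMF1, which is needed for the folding of lipoprotein lipase, had 15.39, 14.30 and 10.78 TPM, and PNPLA2, the intracellular lipase of lipid droplets, had 45.14, 47.56 and 60.73 TPM, and neither was called. The lipase anchor GPIHBP1 and 8 other symbols of this list were not listed.

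**Figure D3:**
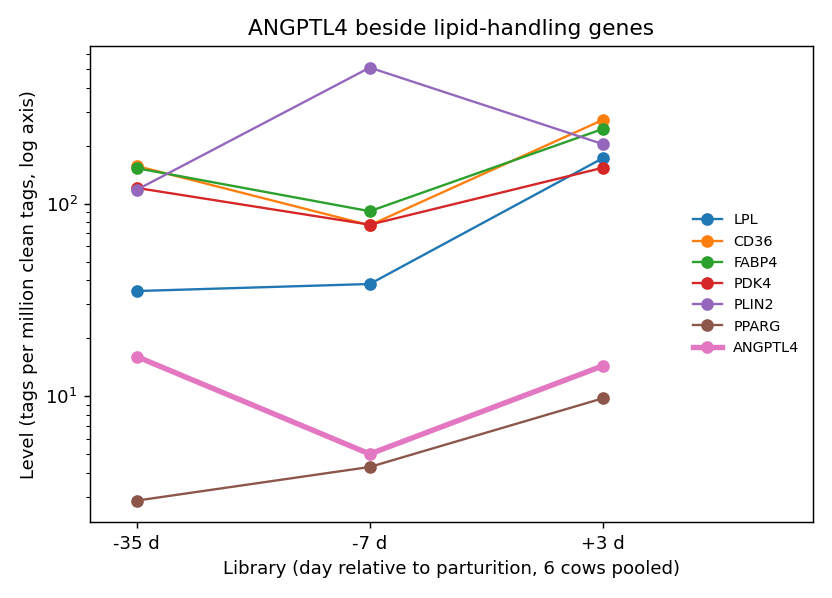
Levels of ANGPTL4 (thick line) and 6 lipid-handling genes in TPM (tags per 1000000 clean tags, log axis) in the 3 libraries, without error bars. ANGPTL4, CD36, FABP4 and PDK4 are lowest at −7 d, PLIN2 is highest there, and LPL and PPARG are highest at +3 d.

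ANGPTL4 is a textbook target of the PPAR receptors, of hypoxia and of glucocorticoids. Other genes known from these responses were set beside it, and the part of these responses in its dip was not tested. Among 11 listed PPAR receptors and targets, 1 was called higher and none lower in stage I. In stage II, 1 was called in each direction. The shares over all tested genes were 2.62% higher and 6.45% lower in stage I, and 3.12% and 10.4% in stage II. Over the 9 PPAR list genes averaging 1 TPM or more, the median log2 ratio was −0.54 in stage I, with 6 below 0. In stage II it was 0.45, with 6 above 0 and 3 below. PLIN2, which coats lipid droplets, had 118.02, 509.01 and 203.91 TPM, with log2 ratios of 2.11 and −1.32, opposite in sign to those of ANGPTL4; the stage II call was lost with DESeq2 size factors at −0.997. FABP4, a fatty acid carrier of adipocytes, endothelium and macrophages, had 152.85, 91.36 and 244.28 TPM and was called higher in stage II, with 1.42. PDK4, which curbs glucose oxidation, had 120.72, 77.77 and 153.61 TPM, with log2 ratios of −0.63 and 0.98 just under the threshold in stage II; after TMM scaling the latter was 1.29 and called. Of the receptors, PPARG had 2.87, 4.29 and 9.75 TPM and was called only between −35 d and +3 d, with 1.76, and after TMM scaling also in stage II, with 1.49. PPARD had 21.30, 12.34 and 12.15 TPM.

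Of 10 listed hypoxia factors and targets, 2 were called lower in stage I and 1 higher in stage II. EPAS1, a hypoxia-inducible factor of endothelium, had 35 tags at −35 d, 2 tags at −7 d and 18 tags at +3 d, and its fall was called; its rise in stage II was called only after other scalings, TMM among them. EGLN3, a prolyl hydroxylase of that pathway, had 7.27, 1.79 and 2.39 TPM and was called lower in stage I with a log2 ratio of −2.02. ADM (adrenomedullin), a vasodilating peptide, rose from 11.80 TPM at −7 d to 59.53 TPM at +3 d, with 2.33. VEGFA was close to level at 15.89, 16.63 and 19.84 TPM. Without a call, NDRG1 and SLC2A1 were higher in stage I, with log2 ratios of 0.70 and 0.66. Also without a call, HIF1A and PGK1 were lower in stage II, with −0.73 and −0.91. None of the 4 listed genes of the glucocorticoid list was called in either stage. Another 4 symbols of that list, the receptor NR3C1 and FKBP5 among them, were not listed. TSC22D3, a standard target of that receptor, had 100.94, 80.99 and 83.65 TPM. DUSP1 had 47.85, 25.21 and 22.58 TPM, and SGK1 had 72.03, 44.52 and 40.71 TPM. The 3 glucocorticoid genes averaging 1 TPM or more all had a log2 ratio below 0 in stage I, at a median of −0.69. In stage II their median was −0.13, with 1 above 0 and 2 below.

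The genes nearest in pattern were found by the distance between the pairs of log2 ratios of both stages, over the 5902 genes averaging 5 TPM or more in 3 libraries. With so few libraries, a small distance is a description only. Nearest to ANGPTL1 were CLEC3B (tetranectin, a plasminogen-binding protein), at a distance of 0.06, MMP2 (gelatinase A), PAM (which amidates peptides), SLC43A2 (an amino acid transporter) and TMEM37, all within 0.15. CLEC3B had 29.76, 9.12 and 22.41 TPM and MMP2 had 44.13, 13.59 and 32.33 TPM.

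Nearest to ANGPTL2 were COL6A2 (a chain of collagen VI), at a distance of 0.05, AFAP1L2, JUNB (an AP-1 transcription factor), CTSF (a lysosomal protease) and S1PR1 (a sphingosine-1-phosphate receptor of endothelium and lymphocytes), all within 0.13. COL6A2 had 99.76, 37.55 and 84.33 TPM. Nearest to ANGPTL4 were APOD (apolipoprotein D, a lipocalin), VSIG4 (a complement receptor of macrophages), RCN3, TARSL2 and IL1RN (the interleukin 1 receptor antagonist), all within 0.16. APOD, at a distance of 0.01, was far more abundant, with 449.92 TPM at −35 d, 142.14 TPM at −7 d and 404.90 TPM at +3 d. The 3 genes lay 0.16 (ANGPTL1 and ANGPTL4), 0.30 (ANGPTL1 and ANGPTL2) and 0.39 (ANGPTL2 and ANGPTL4) from each other. Their choice on these ratios already favours such nearness.

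The angiopoietin-like genes are known from stromal, fat and vascular cells, so markers of such cells were set beside them. Over all tested genes, 6.45% were called lower and 2.62% higher in stage I, and 10.4% lower and 3.12% higher in stage II. Markers of mammary epithelium were present in every library, and the 7 listed of 10 luminal markers summed to 1898, 1325 and 1184 TPM. Of these, 2 were called lower in stage I and 1 lower in stage II. Their median log2 ratio was −0.92 in stage I, with 6 below 0 and 1 above. In stage II it was 0.31, with 5 above 0 and 2 below. The 13 listed of 15 fibroblast markers, among them COL1A1, COL3A1 and DCN, summed to 8863 TPM at −35 d, 6672 TPM at −7 d and 10235 TPM at +3 d, with 2 called lower in stage I and 2 higher in stage II. Smooth muscle and myoepithelial markers, all 10 of them listed, summed to 935, 535 and 1019 TPM, with 4 called lower in stage I and 4 higher in stage II. The fibroblast and smooth muscle sums were both lowest at −7 d, with stage I log2 ratios of −0.41 and −0.81. The summed angiopoietin-like genes, which were chosen for such a drop, had −1.60 (interval −1.90 to −1.31). The 2 fibroblast markers called lower were FBLN1, with −1.18, and OGN, with −1.16. The 4 called lower in the smooth muscle and myoepithelial list were RGS5 (−1.99), KRT5 (−1.96), LMOD1 (−1.29) and ACTA2 (−1.15). The part of these cells in the dip was not tested.

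The other marker lists moved as follows. Their calls stand beside the same shares over all tested genes, 6.45% lower in stage I and 3.12% higher in stage II. The 9 listed of 10 adipocyte markers summed to 284, 173 and 405 TPM, with 2 called lower in stage I and 2 higher in stage II. The most abundant were FABP4, which is not confined to adipocytes, and CFD, with 71.35, 32.18 and 114.27 TPM. Over the 7 adipocyte markers averaging 1 TPM or more, the median log2 ratio was −0.07 in stage I, with 3 above 0 and 4 below. In stage II it was 0.51, with 4 above 0 and 3 below. The fat hormone ADIPOQ had 30, 27 and 16 tags, while PLIN4 had 2 tags at −35 d and was not listed in the later libraries. The 11 accessions of macrophage markers (10 of 14 symbols) summed to 410, 299 and 517 TPM, with 4 called lower in stage I and 4 higher in stage II, and 1 of them, a second accession of MSR1, was not listed at −7 d. Over the 10 macrophage accessions averaging 1 TPM or more, the median log2 ratio was −0.82 in stage I, with 9 below 0 and 1 above. In stage II it was 1.05, with all 10 above 0. The 12 listed of 15 endothelial markers summed to 345, 406 and 539 TPM, with none called in stage I and 2 called higher in stage II. The rise of that sum in stage I rested on ROBO4, with 70.17, 132.12 and 142.49 TPM, and ENG, with 96.54, 129.26 and 169.86 TPM. Together they rose by more TPM than the sum did, so the other endothelial markers summed to less at −7 d than at −35 d. Of the 11 endothelial markers averaging 1 TPM or more, ROBO4 and ENG included, 7 had a log2 ratio below 0 in stage I. The median over the 11 was −0.31. In stage II, 10 had a log2 ratio above 0, at a median of 0.42. The endothelial cadherin CDH5 had 7, 2 and 6 tags. T cell markers (13 of 15 listed) summed to 259, 157 and 155 TPM, with 4 called lower in stage I and 1 higher in stage II. On the scale of clean tags this sum did not return, with log2 ratios of −0.01 in stage II and −0.74 at +3 d over −35 d. TMM scaling raises these ratios by 0.31 and 0.50, so the extent of a return turns on the scaling. Erythrocyte markers (4 of 9 listed) summed to at most 4.11 TPM. The part of the endothelial, adipocyte and macrophage lists in the dip of the 3 genes was not tested.

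**Figure D4:**
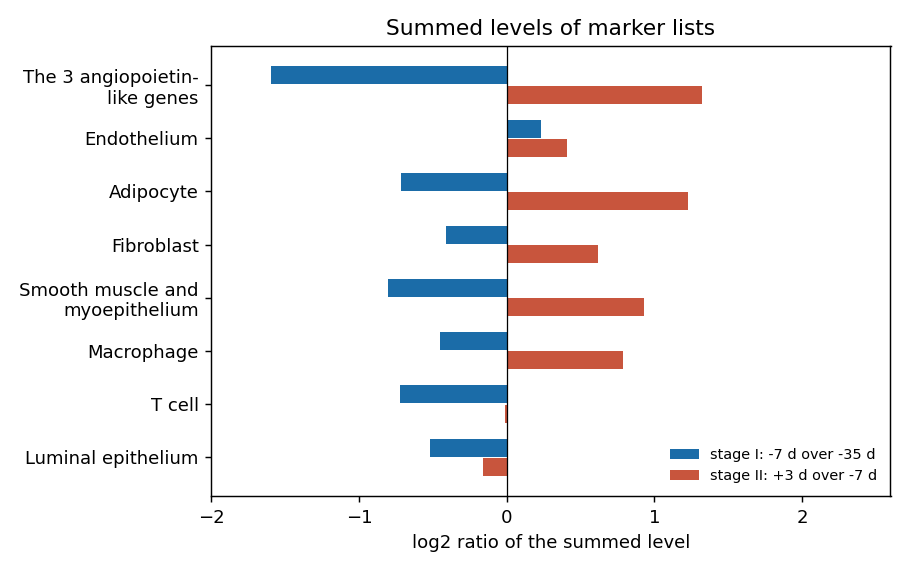
Log2 ratio of the summed level (horizontal axis) in stage I and stage II for the 3 angiopoietin-like genes and for 7 lists of cell type markers, without error bars. The summed angiopoietin-like genes, which were chosen on their ratios in these stages, have the longest bars in both (−1.60 and 1.32). The adipocyte, fibroblast, smooth muscle and macrophage sums fall and rise with shorter bars, and the endothelial sum rises in both stages. In stage II the adipocyte sum, with 1.23, lies within the counting interval of the 3 genes (1.02 to 1.63). A sum follows its most abundant genes. The median log2 ratio by list in stage I was −0.07 (adipocyte), −0.31 (endothelium), −0.40 (fibroblast), −0.77 (smooth muscle), −0.82 (macrophage), −0.90 (T cell) and −0.92 (luminal).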

How the data were processed

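Members and gene lists were chosen with earlier results of these data known. The authors removed adaptors, tags with unknown bases, of wrong length or with 1 copy, matched the clean tags to the CATG sites of bovine transcripts (UMD 3.1, at most 1 mismatch), left out tags of several genes, and deposited the counts of unambiguous tags per gene and of copies per distinct tag. The deposited TPM values were scaled by the authors to the clean tags of the library. A mixed summary deposited by the authors (other values: numbers and percentages by mapping class) gives 8582 to 8871 genes with unambiguous tags, more than the tables list, so a gene that is not listed may have had tags.

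Gene tables were joined by accession, with 0 for a gene not listed. The columns of that summary were matched to libraries by their day names. A symbol came from the authors' description, or from RefSeq's ARS-UCD2.0 table by accession (7905 matched). The smaller tail of the Audic-Claverie distribution was taken 2 times as p, with 0 TPM set to 0.01 TPM for ratios, and called genes were counted over all genes with a tag in either library. Level intervals are exact Poisson, ratio intervals exact binomial. No fold is given where a library holds 3 or fewer tags of the gene. Alternatives were TMM sizes, DESeq2 size factors, totals without genes over 1% of a library, Fisher's test, edgeR's exact test in which pools vary by an assumed coefficient of 0.2, a minimum mean of 5 TPM and 0.5 added tags. The test was checked on simulated data.

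Named genes were the 3 members, list genes called in either stage, and the 5 genes nearest in pattern to each member; other list genes, the flanking genes and the marker genes were named after their values were seen. A list gene called by this rule is not reported here. Genome positions are not printed, since the annotation's build differs from the authors'. Tools were Python 3.11.15, numpy 2.4.6, scipy 1.17.1, pandas 2.3.3, matplotlib 3.10.9, R 4.3.3, edgeR 4.0.16 and DESeq2 1.42.0.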

Additional observations from a re-analysis of the deposited data

How the results depend on the processing

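In stages I and II, the 24 alternative log2 ratios of ANGPTL1, ANGPTL2 and ANGPTL4 kept their sign and stayed within the counting interval. Between −35 d and +3 d the sign turned for ANGPTL1 (0.15 with TMM, 0.16 with DESeq2 size factors), ANGPTL2 (0.22, 0.24 and, with the totals without genes over 1%, 0.089) and ANGPTL4 (0.34 with TMM, 0.36 with DESeq2 size factors), with 0.01 and 0.20 for ANGPTL1 and ANGPTL4 without genes over 1%, which follows from the smaller totals these scalings give the +3 d library. Calls over all genes between −35 d and +3 d numbered 1672, and 1004, 992 and 1039 with TMM, DESeq2 size factors and the totals without genes over 1%. Calls among the genes of the related lists there numbered 9, and 14 with either TMM or DESeq2 size factors. An assumed coefficient of variation of 0.2 between pools left 54 of 813 calls in stage I, 160 of 1189 in stage II and 156 of 1672 between −35 d and +3 d, and among the related lists 3 of 11 (MFAP4, TNXB and PLIN2), 5 of 13 (MFAP4, TNXB, FCN2, LPL and ADM) and 3 of 9, respectively. TMM also turned the split of calls over all genes, from 235 higher and 578 lower to 378 and 350 in stage I, from 274 and 915 to 516 and 430 in stage II, and from 209 and 1463 to 560 and 444 between −35 d and +3 d. For the 16 related genes called in either stage, 276 alternative ratios kept direction and call, 36 lost and 15 gained a call, 3 uncalled ones changed sign, and none that was called turned. Of the 5 genes nearest to ANGPTL1 and to ANGPTL4, 3 and 2 were still nearest with a minimum mean of 10 TPM. No replicate could be left out, and no paired analysis was possible because each time point has 1 library. The 28 to 169 tags per gene limit precision.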
